A study of Mus musculus with 6 samples.

Results

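Circadian clock genes were examined in RNA from mouse hippocampus as a set of 10 genes: the activators Clock and Npas2, the repressors Per1, Per2, Per3, Cry1 and Cry2, the nuclear receptor genes Nr1d1 and Nr1d2, and the output gene Dbp. They were taken by name from a table of 55414 genes, each name matched 1 row, and all 10 were among the 14916 genes tested. The table gives TPM, a transcript level scaled for transcript length and for the library total, in 6 libraries. CerM was given to the mice of 3 libraries and vehicle to those of the other 3, and their titles number them as biological replicates. The labels do not spell out CerM and give no dose, strain, sex, age or time of day of tissue collection. Per its title, the series deals with depression induced by corticosterone and with ceramides, the gut microbiota and mitochondria. Whether each library stems from its own mouse is not stated, and p-values then reflect the spread between libraries, which may be technical.

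In the mammalian clock, a dimer of BMAL1 (gene Arntl in this table) with CLOCK or NPAS2 binds E-box sequences and switches on the Per, Cry, Nr1d and Dbp genes. PER and CRY proteins return to the nucleus and inhibit the dimer, and the NR1D proteins (REV-ERB alpha and beta) repress Arntl and other genes, so the transcripts rise and fall in a daily order. In the hippocampus the clock is tied to daily changes in excitability and memory, and Per1 can also be induced by neuronal activity and by glucocorticoids. Because the levels depend on the hour, a difference in the hour of collection between libraries and a difference between treatments cannot be told apart here.

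The short sequences through which clock proteins bind DNA are shown for the promoters of 5 members, as background to the loop that ties these genes together. Windows from 250 bases before to 50 bases after each gene's start were taken from RefSeq. Their build was GRCm38.p6, older than the GRCm39 build named in the submitters' processing notes. In all, 9 of the 10 genes had 12 windows between them, with 3 for Clock and 2 for Per1. Per2 had no window and was not searched. Both strands were searched for the E-box CACGTG, the noncanonical E-box CACGTT, the D-box TTATGTAA or TTACGTAA bound by DBP and its relatives, the nuclear receptor half-site AGGTCA, and the cyclic AMP response element TGACGTCA. Capitals mark matches, which may read in the opposite orientation, and each stretch of 100 bases runs 5′ to 3′ on the gene's strand and ends before the gene's start.
Per1, plus strand, chr11:69098750-69098849: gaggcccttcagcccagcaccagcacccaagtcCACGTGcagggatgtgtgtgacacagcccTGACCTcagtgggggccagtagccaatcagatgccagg
Cry1, minus strand, chr10:85185072-85185171: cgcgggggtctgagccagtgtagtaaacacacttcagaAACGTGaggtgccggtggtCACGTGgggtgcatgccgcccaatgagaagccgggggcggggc
Per3, minus strand, chr4:151044794-151044893: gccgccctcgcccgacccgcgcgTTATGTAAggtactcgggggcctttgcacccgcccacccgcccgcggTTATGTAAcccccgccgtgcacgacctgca
Nr1d1, minus strand, chr11:98775378-98775477: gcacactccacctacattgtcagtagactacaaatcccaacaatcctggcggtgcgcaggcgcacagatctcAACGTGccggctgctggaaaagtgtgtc
Nr1d2, minus strand, chr14:18239131-18239230: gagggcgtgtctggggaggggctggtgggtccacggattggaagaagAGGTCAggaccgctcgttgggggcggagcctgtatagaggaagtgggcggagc

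The E-box CACGTG lay in 2 of the 12 windows, 1 of Per1 and 1 of Cry1, and in 7.15% of 32851 RefSeq promoter windows of the same length. The noncanonical form lay in 3 of the 12, those of Cry1, Cry2 and Nr1d1 (4.68% of all windows). The D-box lay in 1 of the 12, that of Per3, at 2 places (1.06% of all windows). The half-site lay in 3 of the 12, 1 each of Per1, Nr1d2 and Clock (16.3% of all windows), and the cyclic AMP response element in none of the 12 (1.79% of all windows). These are matches of letters and not shown binding sites, and a window with no match says nothing of binding elsewhere in the gene.

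None of the 10 clock genes passed the test between CerM and vehicle. In limma's fit on log2(TPM + 1), with Benjamini-Hochberg adjustment over the 14916 tested genes and a call at an adjusted p below 0.05, the called share of all genes was also 0%, with 2.70% at an unadjusted p below 0.05. Among the clock genes 0 of 10 reached an unadjusted p below 0.05, and their adjusted p-values ran from 0.989 to 0.999. Log2 fold changes lay between −0.22 for Cry1 and 0.22 for Nr1d1, with 5 above 0 and 5 below. Their median was 0.02, beside a median of 0.03 over all tested genes, 58.8% of which lay above 0.

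**Figure D1:**
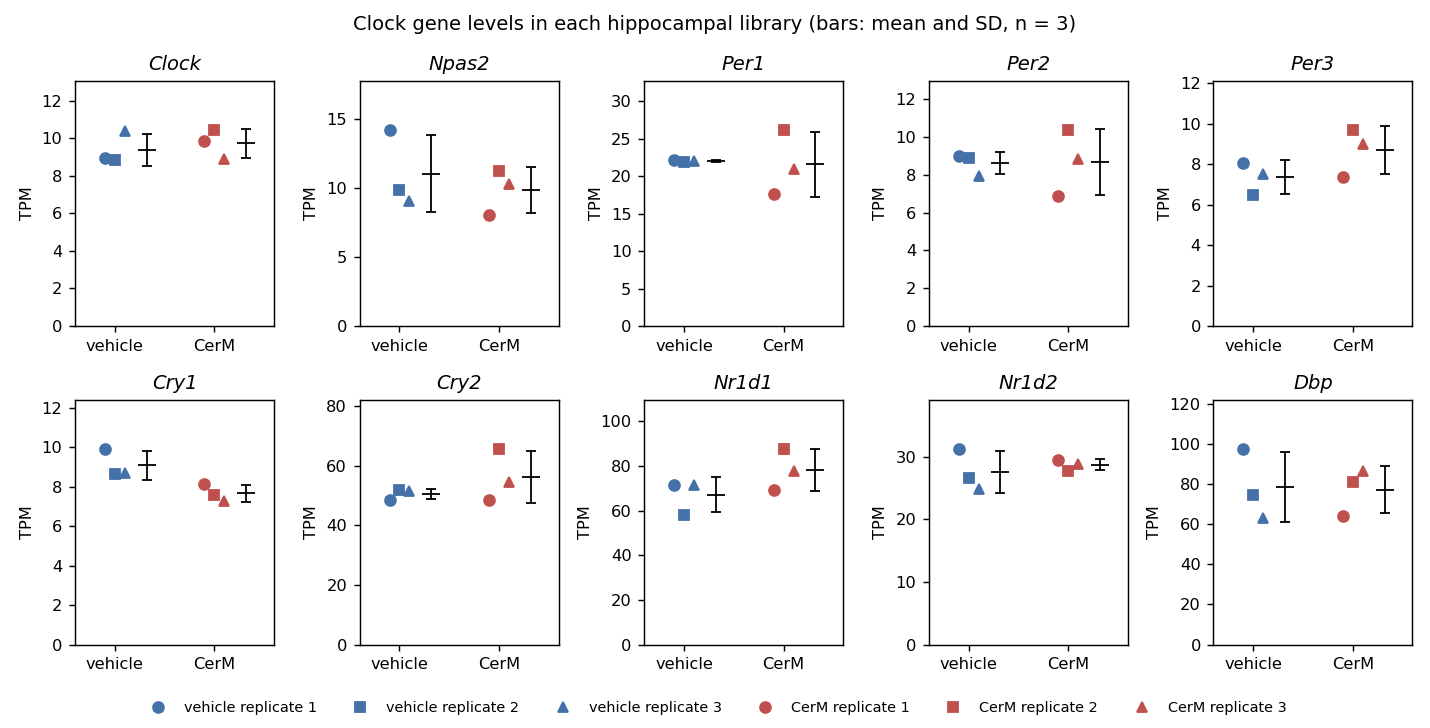
TPM of each clock gene in each library (points; shape gives the replicate number) with the mean and SD of each group of 3 (black). The y axes start at 0 and differ between genes. Cry1 is the single gene whose groups do not overlap, with CerM at 7.26 to 8.13 TPM and vehicle at 8.63 to 9.93 TPM.

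The activator Clock, whose protein carries a histone acetyltransferase activity, stood at 9.87, 10.44 and 8.92 TPM in CerM replicates 1 to 3 and at 8.96, 8.82 and 10.38 TPM in vehicle replicates 1 to 3. The 2 highest values came from opposite groups and nearly coincided, and the groups overlapped. Clock had a log2 fold change of 0.05 ± 0.13 (SE; 95% confidence interval −0.25 to 0.35; limma, adjusted p = 0.990). Fold changes of the next genes are given in the same way, with their SE and then the interval.

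Npas2, the paralog that can replace Clock in forebrain neurons, stood at 8.05, 11.25 and 10.33 TPM in CerM and 14.21, 9.88 and 9.04 TPM in vehicle. Vehicle replicate 1 was the highest and CerM replicate 1 the lowest, and the other 4 libraries lay between them. Npas2 had a log2 fold change of −0.13 ± 0.20 (−0.60 to 0.33), the widest interval of the 10 genes. Without vehicle replicate 1 it turned to 0.05 ± 0.17. That library also had the most neocortex marker RNA, as described below, and whether this bears on Npas2 was not tested.

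The repressor Per1, an early light-, activity- and glucocorticoid-responsive member of its family, stood at 17.61, 26.15 and 20.97 TPM in CerM and 22.09, 21.87 and 21.97 TPM in vehicle. The vehicle libraries agreed to within 0.11 TPM (SD, n = 3), while CerM held both the lowest and the highest value, with an SD of 4.30 TPM. Per1 had a log2 fold change of −0.04 ± 0.15 (−0.39 to 0.30), and without CerM replicate 1 it was 0.09.

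Per2, whose protein sets the pace of the loop through its phosphorylation and turnover, stood at 6.90, 10.37 and 8.82 TPM in CerM and 9, 8.89 and 7.94 TPM in vehicle. CerM replicates 1 and 2 were again the lowest and the highest library, as for Per1. The group means were 8.70 ± 1.74 and 8.61 ± 0.58 TPM (SD, n = 3 each), and the log2 fold change was −0.0011 ± 0.16 (−0.38 to 0.38).

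Per3, the family member that is dispensable for the basic rhythm, stood at 7.38, 9.69 and 8.99 TPM in CerM and 8.08, 6.46 and 7.54 TPM in vehicle. CerM replicates 2 and 3 lay above every vehicle library, and CerM replicate 1 below 2 of the 3. For Per3 the log2 fold change was 0.21 ± 0.15 (−0.14 to 0.56). It was 0.13 without vehicle replicate 2 and 0.14 without CerM replicate 2.

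Cry1, the cryptochrome with the later peak in most tissues and a strong inhibitor of the activator dimer, stood at 8.13, 7.60 and 7.26 TPM in CerM and 9.93, 8.63 and 8.70 TPM in vehicle. All 3 CerM libraries lay below all 3 vehicle libraries. The means were 7.66 ± 0.44 and 9.09 ± 0.73 TPM (SD, n = 3 each), with a log2 fold change of −0.22 ± 0.12 (−0.51 to 0.07). Its unadjusted p of 0.12 was the smallest of the 10, and limma's adjusted p was 0.989. Groups did not overlap, with CerM lower, in 4.04% of all tested genes and in 1 of the 10 clock genes. With CerM higher this held in 3.26% of all tested genes and in 0 clock genes. Leaving out 1 library at a time, the log2 fold change of Cry1 ran from −0.26 to −0.16.

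Cry2, the second cryptochrome, stood at 48.32, 65.69 and 54.44 TPM in CerM and 48.41, 51.66 and 51.37 TPM in vehicle. CerM replicate 2 was far above the rest, and CerM replicate 1 and vehicle replicate 1 were nearly equal at the low end. The log2 fold change was 0.14 ± 0.12 (−0.15 to 0.43), and it was 0.02 without CerM replicate 2 and 0.24 without CerM replicate 1. An antisense transcript, D930015M05Rik, shares 4.67% of the exonic bases of Cry2 and was listed at no more than 0.53 TPM in any library.

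Nr1d1, which encodes REV-ERB alpha, stood at 69.15, 87.79 and 77.62 TPM in CerM and 71.66, 58.05 and 71.60 TPM in vehicle. CerM replicates 2 and 3 lay above every vehicle library, CerM replicate 1 lay just below 2 of them, and vehicle replicate 2 was the lowest. Means were 78.2 ± 9.33 and 67.1 ± 7.84 TPM (SD, n = 3 each), and the log2 fold change was 0.22 ± 0.13 (−0.08 to 0.52). It was 0.12 without vehicle replicate 2 and 0.13 without CerM replicate 2. The exons of Nr1d1 overlap those of the thyroid hormone receptor gene Thra on the opposite strand, over 263 bases or 8.55% of the exonic bases of Nr1d1 in the GENCODE M21 annotation. Thra stood at 800.1 ± 140.6 TPM in CerM and 823 ± 57.2 TPM in vehicle. Whether strand was used in counting is not given in the sources used here, so reads from the shared part may have been given to either gene.

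Nr1d2, which encodes REV-ERB beta, stood at 29.49, 27.76 and 28.76 TPM in CerM and 31.29, 26.53 and 24.82 TPM in vehicle. The CerM libraries all fell inside the range of the vehicle libraries. For Nr1d2 the log2 fold change was 0.06 ± 0.11 (−0.20 to 0.33).

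The output gene Dbp, a D-box-binding transcription factor that is among the most strongly rhythmic transcripts in many tissues, stood at 64.06, 81.20 and 86.35 TPM in CerM and 97.79, 74.84 and 63.37 TPM in vehicle. Vehicle libraries held both the highest and the lowest value. For Dbp the log2 fold change was −0.02 ± 0.18 (−0.44 to 0.41), and it was 0.15 ± 0.16 without vehicle replicate 1. The exons of Dbp overlap, over 18.0% of their bases and on the opposite strand, those of Sphk2, the sphingosine kinase 2 gene. Sphk2 stood at 16.3 ± 0.98 TPM in CerM and 14.9 ± 2.71 TPM in vehicle.

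**Figure D2:**
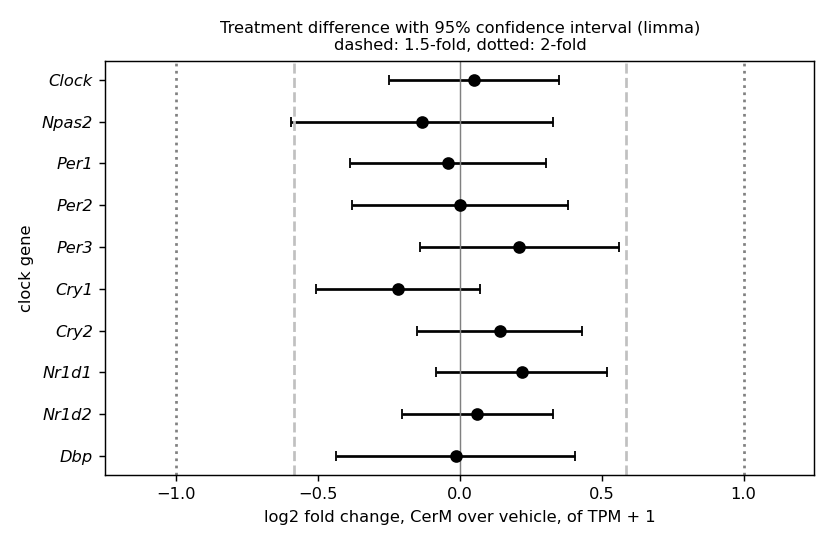
Log2 fold change of TPM + 1 (CerM over vehicle) for each clock gene, with the 95% confidence interval of limma's fit. Every interval crosses 0 and lies within the dotted 2-fold lines, and the interval of Npas2 reaches past the dashed 1.5-fold line at its lower end (−0.60).

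The intervals bound, 1 gene at a time, how large a difference between the CerM and vehicle libraries these values allow. They do not bound a treatment difference that the hour of collection or the tissue mix offsets. All 10 lay within a 2-fold difference of TPM + 1 in either direction, as did those of 90.2% of all tested genes. Within 1.5-fold lay 9 of the 10, Npas2 being the exception, beside 63.7% of all tested genes. That count holds for the pseudocount of 1. Per3 came close to the limit, with an interval up to 1.48-fold. With a pseudocount of 0.1 its log2 fold change was larger and less precise, at 0.23 ± 0.16 (SE). Intervals were not counted again at other pseudocounts. For Nr1d1 the interval allows anything from 0.94-fold to 1.43-fold, and for Cry1 from 0.70-fold to 1.05-fold.

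Spread between libraries of the same treatment was unequal among the members. The residual SD on the log2 scale was 0.28 for Npas2 and 0.27 for Dbp, and 26.3% and 27.0% of tested genes had a larger one. It was lowest for Cry1 at 0.089 and Clock at 0.11, where 90.7% and 82.5% of tested genes had a larger one. The median over the 10 genes was 0.17, beside 0.19 over all tested genes. Over all 6 libraries the highest level was between 1.18 times (Clock) and 1.77 times (Npas2) the lowest.

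Levels can be set side by side because TPM is scaled for length, with a limit for genes whose exons overlap those of another gene. Nr1d1 shares 8.55% of its exonic bases with Thra, which stood at 718.7 to 962.5 TPM. Dbp shares 18.0% with Sphk2, which stood at 12.2 to 17.6 TPM. What part of the Nr1d1 and Dbp levels comes from the shared bases was not tested, so their places in the order carry that limit. Dbp (77.9 ± 13.3 TPM, SD over 6 libraries) and Nr1d1 (72.6 ± 9.81 TPM) led, and Dbp was the higher of the pair in 3 of 6 libraries, so their order did not exceed their spread. Cry2 followed at 53.3 ± 6.48 TPM, below Nr1d1 in all 6 libraries although their ranges overlapped. Nr1d2 (28.1 ± 2.28 TPM) was above Per1 (21.8 ± 2.73 TPM) in all 6, again with overlapping ranges. The other 5 genes, Npas2, Clock, Per2, Cry1 and Per3, lay between means of 10.5 and 8.02 TPM, and each was above the next in the order in only 3 or 4 of 6 libraries.

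**Figure D3:**
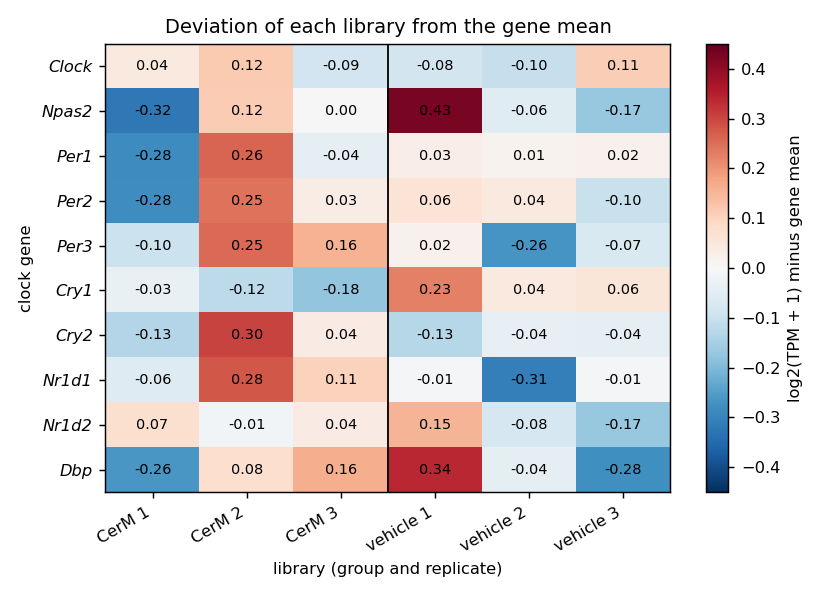
Difference of each library's log2(TPM + 1) from the mean of that gene over the 6 libraries (columns: libraries, with CerM left of the line; rows: clock genes). CerM replicate 2 and vehicle replicate 1 hold the highest value of every gene, and CerM replicate 1 is at −0.32 to −0.26 for Npas2, Per1, Per2 and Dbp.

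Seen by library, the highest value of every clock gene fell in 1 of 2 libraries. CerM replicate 2 had the highest value of 6 genes (Clock, Per1, Per2, Per3, Cry2 and Nr1d1), and vehicle replicate 1 that of the other 4 (Npas2, Cry1, Nr1d2 and Dbp). CerM replicate 2 was also the highest library for 41.1% of all tested genes, and vehicle replicate 1 for 16.9%. CerM replicate 1 had the lowest value of Npas2, Per1, Per2 and Cry2, and it was the lowest for 20.2% of all tested genes. The median deviation of the 10 genes was 0.18 in CerM replicate 2, where that of all tested genes was 0.12. In CerM replicate 1 it was −0.11, beside −0.055 for all tested genes.

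Levels of tissue and cell markers also differed between libraries. The hippocampal marker genes, among them Prox1 of dentate granule cells and Wfs1 of CA1 neurons, were all present. The 12 summed to 570.2 TPM in vehicle replicate 1 and to 736.8 to 846.9 TPM in the other 5 libraries. Not all followed the sum: in vehicle replicate 1 Mpped1 was highest (144.76 TPM) and Wfs1 (59.90 TPM) lay within the range of the other libraries. The rest of the 12 were lowest there. The 9 neocortex markers summed to 415.3 TPM in vehicle replicate 1 and 167.2 to 175.9 TPM elsewhere. All 9 were highest in vehicle replicate 1, where Lamp5 (149.89 TPM) and Mef2c (122.96 TPM) made up most of the sum. Fezf2 (37.38 against at most 35.57 TPM) and Rasgrf2 (20.87 against at most 20 TPM) differed little. Oligodendrocyte markers summed to 3314 TPM in vehicle replicate 1 and 5108 to 6179 TPM elsewhere. The 9 choroid plexus markers, nearly all of them Ttr, summed to 9321, 10973 and 15740 TPM in CerM replicates 1 and 3 and vehicle replicate 3, and to 253.3 to 306.0 TPM in the other 3. The 8 adipocyte markers summed to 880.5 TPM in CerM replicate 3 and 12.9 to 22.5 TPM elsewhere. Their part in the clock gene values was not tested, and in bulk RNA fewer cells of a type and less RNA per cell cannot be told apart. Genes that mark the suprachiasmatic nucleus, the master clock of the hypothalamus, were near 0: Six6 reached at most 0.07 TPM, Avp 1.05 TPM and Nms 0.16 TPM. Vip and Grp, which cortical and hippocampal neurons also express, made up most of that list's sum of 54.8 to 104.4 TPM.

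Pairs of clock genes were compared over the 6 libraries on the log2(TPM + 1) scale. Of 45 pairs 33 had a positive Pearson's r, with a median of 0.31, and 3 had an exact permutation p below 0.05. None passed after adjustment over the 45 pairs, where the smallest p that 6 libraries allow, 0.0014, gives an adjusted p of 0.0625 for a single pair. All pairs share the same libraries and their total scaling, so a library-wide shift moves every gene together.

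Per3 and Nr1d1 followed each other most closely. Pearson's r was 0.97 (exact permutation p = 0.0014, adjusted p = 0.0625) and Spearman's rho was 1.00 (exact permutation p = 0.0028, adjusted p = 0.125), so both genes put the 6 libraries in the same order. Without CerM replicate 2 and vehicle replicate 2, the libraries farthest from the median of Per3, r was 0.95. Between deviations from the group means r was 0.95.

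Npas2 and Dbp, an activator and an output of the loop, were also close. Pearson's r was 0.92 (exact permutation p = 0.0097, adjusted p = 0.219) and Spearman's rho was 0.89 (exact permutation p = 0.0333, adjusted p = 0.50). Without CerM replicate 1 and vehicle replicate 1, r was 0.83, and between deviations from the group means it was 0.95.

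Per1 and Per2 had a Pearson's r of 0.92 (exact permutation p = 0.0403, adjusted p = 0.604) and a Spearman's rho of 0.83 (exact permutation p = 0.0583, adjusted p = 0.656). That relation rests on CerM replicates 1 and 2: without them r was −0.19. Nr1d1 and Nr1d2, which encode closely related receptors, had an r of only 0.18 (exact permutation p = 0.779, adjusted over 45 pairs 0.855) and a rho of 0.20 (exact permutation p = 0.714), and without CerM replicate 2 and vehicle replicate 2 r was −0.025. Cry1 and Cry2 leaned in opposite directions, with an r of −0.62 (exact permutation p = 0.201, adjusted p = 0.728) and a rho of −0.60 (exact permutation p = 0.242). For this pair r was −0.75 without CerM replicate 3 and vehicle replicate 1, but weaker, at −0.46, between deviations from the group means.

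**Figure D4:**
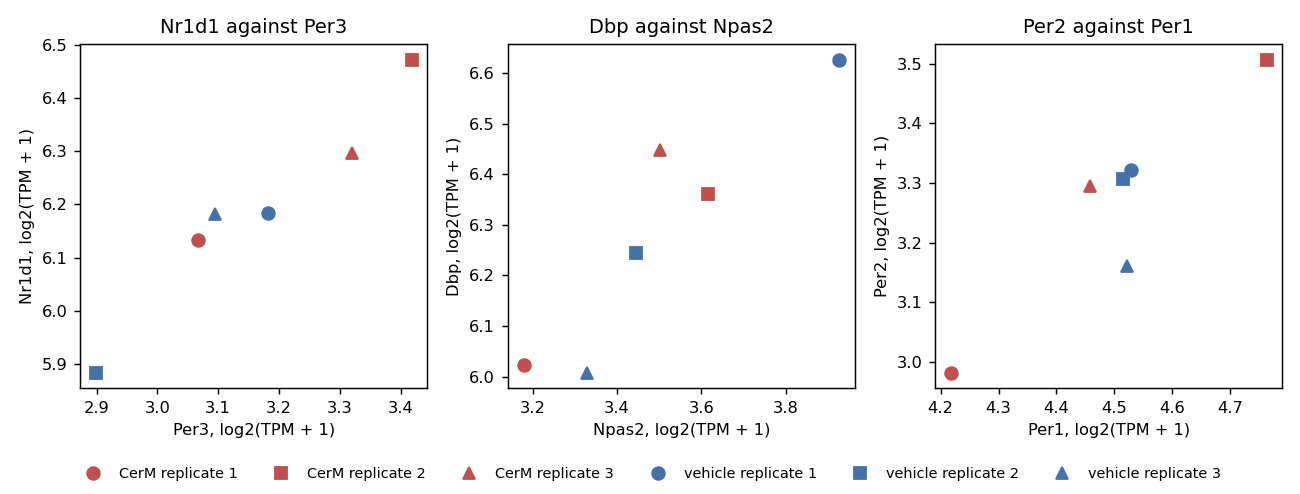
The 3 pairs of clock genes with the smallest exact permutation p, each point 1 library, both axes in log2(TPM + 1) and not starting at 0. Nr1d1 rises with Per3 through all 6 libraries (r = 0.97), Dbp with Npas2 (r = 0.92), and the relation of Per2 with Per1 hangs on the outer points, CerM replicates 1 and 2.

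Genes whose pattern over the 6 libraries was most like that of Dbp were Ccdc73, Acer2, Fst, Dusp15 and Crebl2, with Pearson's r between 0.97 and 0.99. Acer2 encodes an alkaline ceramidase and Fst encodes follistatin, and both were low, with means of 3.26 and 1.74 TPM over the 6 libraries. The most unlike were Mettl18, Hmgn2, Ccdc34, Smchd1 and Cdc27, all with r of −0.98. They are the extremes among the 13256 tested genes left after the 10 members and genes named only by a clone or prediction were set aside. Of those, 33 had an r of at least 0.95 in size. A search of this size over 6 libraries also yields such values among unrelated genes, and the number to be met by chance was not worked out. The values are given as a description and do not show a link to Dbp.

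No gene of the wider clock pathway passed the test either. Of 74 tested genes in 5 lists, 0 were called by limma, and 2 (Lonrf3 and Npas4) had an unadjusted p below 0.05, a share close to the 2.70% of all tested genes. The log2 fold change was above 0 in 50 and below 0 in 24, where 58.8% of all tested genes lay above 0. Its median was 0.06 beside 0.03 over all tested genes. The counts above 0 in the single lists below are to be read beside the same 58.8%. Groups did not overlap in 8 of them, 4 with CerM higher (Bhlhe41, Sirt1, Klf10 and Lonrf3) and 4 with CerM lower (Sfpq, Wee1, Leo1 and Npas4), beside the 3.26% and 4.04% of all tested genes given above.

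Among 13 other genes of the core loop, 9 lay above 0 and 0 were called. Arntl, the partner of Clock and Npas2, stood at 15.16, 19.14 and 15.66 TPM in CerM and 16.29, 17.55 and 16.86 TPM in vehicle, with a log2 fold change of −0.03 ± 0.12 (−0.31 to 0.26). The groups of Arntl overlapped, and CerM replicate 2 was again the highest library. Bhlhe41 (DEC2), a repressor that competes at E-boxes, had 11.5 ± 0.23 TPM in CerM and 9.58 ± 0.59 TPM in vehicle (SD, n = 3 each), a log2 fold change of 0.24 ± 0.11 (SE; limma, adjusted p = 0.989). Its relative Bhlhe40 had 69.0 ± 8.56 against 63.7 ± 1.1 TPM. Rorb, a nuclear receptor gene that is also a neocortex marker, had 2.79 ± 0.37 against 3.73 ± 1.90 TPM, with 5.91 TPM in vehicle replicate 1.

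Of 19 genes for kinases, phosphatases, ubiquitin ligases and other enzymes that act on clock proteins, 12 lay above 0 and 0 were called. Sirt1, a deacetylase that binds CLOCK, had 4.91 ± 0.025 TPM in CerM and 3.89 ± 0.64 TPM in vehicle, a log2 fold change of 0.28 ± 0.15 (SE). Csnk1e, a kinase of PER proteins, had 57.9 ± 5.15 against 63.6 ± 4.04 TPM. Fbxl21, a ubiquitin ligase subunit for CRY proteins, had 2.98 ± 0.80 against 2.22 ± 0.26 TPM. In both of the last 2 the groups overlapped.

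Of 13 coregulator genes 10 lay above 0 and 0 were called. Ncor1, the corepressor that NR1D proteins recruit, had 72.2 ± 7.51 TPM in CerM and 62.6 ± 3.73 TPM in vehicle. The acetyltransferase genes Ep300 and Kat2b had 12.3 ± 4.57 against 9.26 ± 1.15 TPM and 8.94 ± 0.74 against 7.71 ± 1.63 TPM. CerM replicate 2 was the highest library for Ncor1 (80.36 TPM) and Ep300 (17.42 TPM).

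Of 16 clock-controlled output genes 9 lay above 0 and 0 were called. Lonrf3 had 5.68 ± 0.33 TPM in CerM and 4.16 ± 0.69 TPM in vehicle, a log2 fold change of 0.38 ± 0.16 (SE; 95% confidence interval 0.01 to 0.74; limma, adjusted p = 0.989). Leo1, a subunit of the PAF1 transcription complex, had 17.0 ± 0.89 against 20.9 ± 2.46 TPM, and Klf10, a zinc finger transcription factor gene, 16.7 ± 1.06 against 14.3 ± 0.86 TPM.

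Of 13 genes that carry, or respond to, signals that also reach the Per genes, 10 lay above 0 and 0 were called. Npas4, an activity-induced transcription factor gene, stood at 2.14, 2.91 and 2.84 TPM in CerM and 4.07, 4.16 and 4.17 TPM in vehicle, a log2 fold change of −0.51 ± 0.16 (SE; limma, adjusted p = 0.989). Sgk1, a glucocorticoid-induced kinase gene, stood at 47.70, 77.29 and 78.54 TPM in CerM and 44.25, 47.57 and 56.04 TPM in vehicle. CerM replicate 1 was the one CerM library within the vehicle range for Sgk1. Egr1, another activity-induced gene, had 54.4 ± 4.62 against 80.9 ± 34.7 TPM, with 120.96 TPM in vehicle replicate 1.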

How the data were processed

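Per the labels' protocols, TRIzol extracts of hippocampus were cleared of DNA and an Illumina TruSeq RNA kit was used for the libraries. The TPM values are those the authors deposited; the submitters' processing notes name HISAT2, StringTie, RSEM and GRCm39 without version or role. TPM holds no read depth, so no counting interval is given and precision rests on 3 libraries a group. No library was identical to another over the whole table.

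Genes with a mean of at least 1 TPM were tested on log2(TPM + 1) by limma 3.58.1 (R 4.3.3) with a variance trend, two-sided, adjusted by Benjamini-Hochberg over all genes, and called below 0.05. The pseudocount makes fold changes of low genes too small. The script was tested on simulated data. Exact permutation tests ran over all pairings of the 6 libraries. The rest used Python 3.11.15 (scipy 1.17.1, pandas 2.3.3, numpy 2.4.6), with figures by matplotlib 3.10.9. Exon overlaps came from GENCODE M21, of an older build, by Ensembl identifier.

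The members and lists were chosen with earlier results of these data known. All members are named, with Arntl, the 3 genes of smallest p in each other list, the 5 genes most and least like Dbp, and groups that do not overlap. Clone-named genes were left out of the search for genes like Dbp. Alternatives changed the pseudocount (0.1, 0.5), TPM minimum (none, 5), scaling, variance model, sample weights and replicate block, or left out 1 library.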

Additional observations from a re-analysis of the deposited data

How the results depend on the processing

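Under 17 alternatives limma called 0 of the 10 clock genes and 0 other clock-pathway genes, with smallest adjusted p-values between 0.214 (sample weights) and 1.00. Over all genes it called 0 under the 11 alternatives that kept every library and 1 to 8 with a library left out, none of them a clock gene. Per3, Cry1, Cry2 and Nr1d1 kept their direction under all 17, but not their size: with a library left out, log2 fold changes ran from 0.13 to 0.31 for Per3, −0.26 to −0.16 for Cry1, 0.023 to 0.24 for Cry2 and 0.12 to 0.30 for Nr1d1. With sample weights Nr1d1 was at 0.34 (unadjusted p 0.0086, limma adjusted p 0.214), Per3 at 0.33 (0.019 and 0.218) and Cry2 at 0.066, and 18.1% of all tested genes had an unadjusted p below 0.05, against 2.70% without weights. Per3 was at 0.13 with quantile normalization. The other 6 genes did not keep their direction: Clock was at −0.022 with quantile normalization, Per2 at 0.012 with TPM rescaled without mitochondrial DNA genes, and Dbp at 0.0033 with quantile normalization and 0.085 with sample weights. With a library left out, log2 fold changes ran from −0.25 to 0.046 for Npas2, −0.18 to 0.088 for Per1, −0.12 to 0.14 for Per2, −0.0075 to 0.15 for Nr1d2 and −0.16 to 0.15 for Dbp. The median of the 10 genes ran from −0.027 to 0.10 over these, less than the SD of 0.11 between libraries from its main value. With the replicate number as a block (replicate block), 0 genes were called and the smallest adjusted p was 0.980. Same-numbered libraries had deviations from the group means correlated at 0.0083, 0.196 and 0.222 for numbers 1 to 3. CerM replicate 2 with vehicle replicate 3 was at −0.207 and CerM replicate 3 with vehicle replicate 2 at −0.204. Vehicle replicate 1 correlated best with CerM replicate 2, at 0.065. These values do not settle whether the numbers pair samples. The titles state no pairing, so the block was kept as an alternative. The count of 3 gene pairs with an exact permutation p below 0.05 held under both other pseudocounts and both scalings tried. Depth is unknown, and 3 libraries a group limit what can be detected.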

Other observations

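Ratios between related clock genes were taken within each library from the deposited TPM, after the values had been seen, and carry no test. The ratio of Per1 to Per3 was 2.39, 2.70 and 2.33 in CerM replicates 1 to 3 and 2.73, 3.39 and 2.91 in vehicle replicates 1 to 3. It was lower in every CerM library than in any vehicle library, by a gap smaller than the SD within either group. The ratio of Cry2 to Cry1 was 5.94, 8.64 and 7.50 in CerM and 4.88, 5.99 and 5.90 in vehicle. CerM replicate 1 fell inside the vehicle range and the other 2 CerM libraries above it. The ratio of Per1 to Per2 was steadier, between 2.38 and 2.77 in all 6 libraries. Nr1d1 was 2.34 to 3.16 times Nr1d2 in CerM and 2.19 to 2.88 times in vehicle. Clock was 0.86 to 1.23 times Npas2 in CerM and 0.63 to 1.15 times in vehicle, with the lowest ratio in vehicle replicate 1.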
